A study of Drosophila melanogaster with 6 samples.

Results

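The chromatin regions described here are the 231 peaks of Myc-tagged Cyclin G that lie in the euchromatin of the X chromosome of Drosophila melanogaster, out of 3363 peaks in the whole list. They were chosen by the position that the peak caller gave them, with an end below 21300000 on X. The 613 peaks of the euchromatin of 2L, 3L and 3R, with 188, 175 and 250 peaks, served for comparison. Euchromatin there meant an end below 22 Mb on 2L and 22.9 Mb on 3L, and a start above 4.2 Mb on 3R. The number of peaks on X follows from this choice and is given as a description.

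The ChIP was made from wing imaginal discs of female larvae of the third instar raised at 25 °C. The Myc-CycGΔP discs were heterozygous for the transgene UAS-Myc-CycGΔP and for the ubiquitous driver da-Gal4. They expressed a Myc-tagged Cyclin G without its PEST-rich domain and gave 2 ChIP libraries and 2 inputs. The mock discs (da-Gal4/+) carried the driver alone and gave 1 ChIP library and 1 input, which are not analysed here. The measured protein was thus an ectopic, truncated form, expressed beside the fly's own Cyclin G. The paper reports that RNA of the endogenous gene decreased in wing discs when CycGΔP was expressed. The 2 ChIP replicates were fused by the authors into 1 list, which holds positions only. No peak has a height or a value per library, so no error between replicates can be given, and the tissue label could not be checked against marker genes.

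Cyclin G is a cyclin that interacts with the chromatin proteins Corto and Asx, which act with both Polycomb and trithorax complexes, and it is known to affect transcription. The X chromosome is present as a single copy in males and is then compensated by the dosage compensation complex, which does not form in females. Its euchromatin holds short arrays of the 359 bp satellite family, the tandem Stellate genes and many mobile element insertions. Most active fly promoters with dispersed initiation carry short motifs such as the DRE, bound by Dref, or Motif 1, bound by M1BP, upstream of the transcription start (TSS).

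The peaks on X were of 2 kinds. Of the 231 peaks, 140 (60.6%, 95% Wilson interval 54.2 to 66.7%) lay in unique sequence, meaning that at least 90% of their 75-base words, the length of a read, occurred once in the genome. Of these 140 peaks, 128 (91.4%) held an annotated TSS. The other 91 peaks lay in repeated sequence, and 75 of them (82.4%) overlapped an annotated mobile element. The remaining 16 were 8 peaks on Stellate genes, 4 peaks near the distal end of the chromosome and 4 single peaks, in AstA-R1, Muc14A, at the start of sordd1 and between genes. A read from a repeat fits several copies equally well and the aligner then reports 1 of them. In 65 of these 91 peaks no word occurs once, and the copy that gave the reads cannot be told apart from its relatives. The other 26 hold some unique words, up to 84.1%. Whether the mock ChIP also gave signal at the peaks in repeated sequence was not tested.

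The sequences below show the kinds of place where peaks lay, and 1 where no peak lay. Capitals mark the DRE (TATCGATA) or the core of Motif 1 (GGTCACAC), on either strand. The first lines run from 80 bases upstream to 20 bases downstream of a start inside a unique peak, on the gene's strand. They belong to sesB (chrX:10786938-10787038), which holds the DRE at 2 places, RpS15Aa (chrX:13337685-13337785), which holds it once, N (chrX:3134790-3134890) and sta (chrX:1483393-1483493), which hold the core of Motif 1, and RpL22 (chrX:765110-765210), which holds neither. The next line is the peak on Ste:CG33239 on the gene's strand (chrX:14057262-14057460), the narrowest of the Stellate peaks, without either motif. It is followed by a stretch of the narrowest peak of the distal end, on the forward strand (chrX:26717-26805), and by the first 108 bases of a satellite monomer of X euchromatin, on the forward strand (chrX:9624909-9625016), in which no peak lay. All are from the RefSeq sequence of dm6.
sesB: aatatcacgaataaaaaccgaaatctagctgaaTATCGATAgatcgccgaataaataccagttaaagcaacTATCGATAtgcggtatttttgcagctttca
RpS15Aa: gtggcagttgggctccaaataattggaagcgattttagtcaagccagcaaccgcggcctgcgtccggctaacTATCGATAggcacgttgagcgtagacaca
N: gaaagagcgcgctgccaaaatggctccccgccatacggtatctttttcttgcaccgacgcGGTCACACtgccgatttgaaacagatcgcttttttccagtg
sta: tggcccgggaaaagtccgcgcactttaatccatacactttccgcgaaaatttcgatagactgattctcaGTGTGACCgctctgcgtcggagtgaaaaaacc
RpL22: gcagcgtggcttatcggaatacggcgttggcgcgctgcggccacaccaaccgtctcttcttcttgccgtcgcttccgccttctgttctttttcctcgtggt
Ste:CG33239: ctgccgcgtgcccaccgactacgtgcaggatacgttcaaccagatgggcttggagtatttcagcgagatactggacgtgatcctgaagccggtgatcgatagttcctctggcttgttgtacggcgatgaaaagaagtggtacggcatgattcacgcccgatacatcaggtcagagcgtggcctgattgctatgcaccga
Distal end: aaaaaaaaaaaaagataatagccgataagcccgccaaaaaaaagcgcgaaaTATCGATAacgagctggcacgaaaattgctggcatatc
Satellite: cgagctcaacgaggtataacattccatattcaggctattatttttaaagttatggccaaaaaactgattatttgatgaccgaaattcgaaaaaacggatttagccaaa

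The first question was where the peaks lay relative to genes. On X, 135 of 231 peaks held an annotated TSS (58.4%, interval 52.0 to 64.6%), 67 lay in a gene without a TSS (29.0%, 23.5 to 35.2%) and 29 lay between genes (12.6%, 8.88 to 17.4%). On 2L, 3L and 3R together, 305 of 613 peaks held a TSS (49.8%), 165 lay in a gene without one (26.9%) and 143 lay between genes (23.3%). The intergenic share was lower on X, with an odds ratio of 0.472 (95% interval 0.295 to 0.735, two-sided Fisher's exact test, p = 0.00385 after Benjamini-Hochberg adjustment over 10 properties). The TSS share did not pass the threshold (odds ratio 1.42, 1.03 to 1.95, exact adjusted p = 0.0841), nor did the gene body share (odds ratio 1.11, 0.779 to 1.57, exact adjusted p = 0.780). These tests take peaks as the units of a single list, so they describe this list and not the spread between ChIP replicates.

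**Figure D1:**
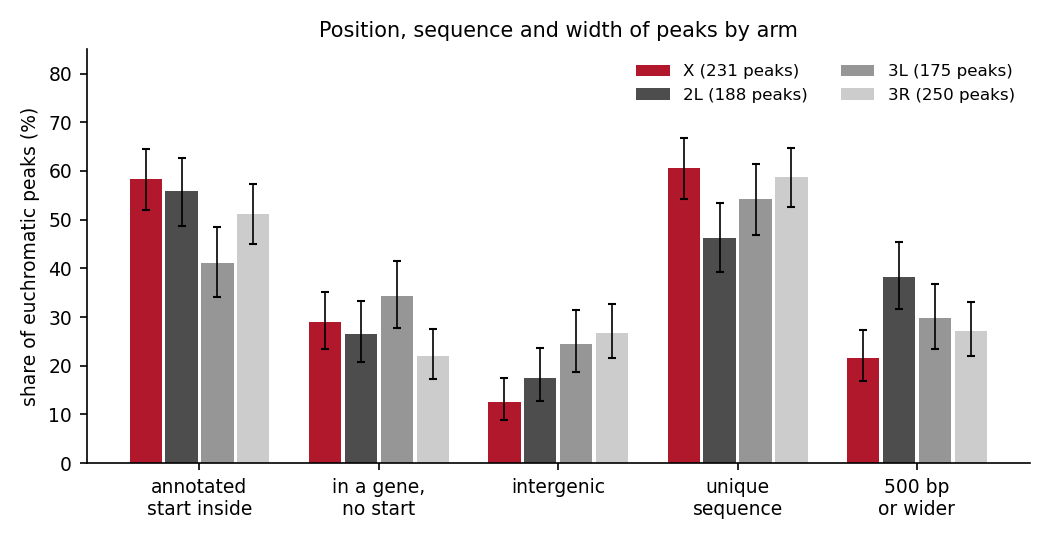
Share of the euchromatic peaks of each arm, in percent, with each property: an annotated start inside, in a gene without a start, intergenic, unique sequence, and a width of 500 bp or more. X is in red and 2L, 3L and 3R in grey, and lines give 95% Wilson intervals. X had the lowest intergenic share, 12.6%, against 17.6% on 2L, 24.6% on 3L and 26.8% on 3R.

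These calls depended on which peaks were counted. Without the 36 peaks of the histone gene cluster of 2L the TSS share passed the threshold (odds ratio 1.52, exact adjusted p = 0.0270). From its profiles of signal over genes, the paper left out some genes, including histone ones, whose signal it called spurious. The intergenic call was lost in 4 of 13 alternatives. Among unique peaks, 9 of 140 on X and 40 of 329 on 2L, 3L and 3R were intergenic, and the odds ratio of 0.497 no longer passed (exact adjusted p = 0.234). It did not pass either when peaks within 10 kb of each other were counted as 1 unit (odds ratio 0.559, exact adjusted p = 0.205), against 2L alone (0.675, exact adjusted p = 0.335), or without peaks in mobile elements (0.746, exact adjusted p = 0.887). A unit of several peaks counted in each class that any of its peaks had, so it could fall in more than 1 class.

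Peaks at starts sat just upstream of them. The 128 unique X peaks with a TSS had a median centre position of -73.2 bp relative to the nearest start inside (negative values upstream), with quartiles of -109 and -45.8 bp and extremes of -272.5 and 66.5 bp, and 120 of them (93.8%) were centred upstream. Their median width was 322 bp, the narrowest being 189 bp and the widest 794 bp. The 276 unique peaks with a TSS on 2L, 3L and 3R had a median centre of -69.8 bp, and 268 of them (97.1%) were centred upstream. Over all peaks with a TSS the upstream share was 90.4% (122 of 135) on X and 89.8% (274 of 305) on 2L, 3L and 3R, an odds ratio of 1.06 (0.518 to 2.29, exact adjusted p = 1). That value depended on the histone cluster peaks of 2L: without them the share on the other arms was 269 of 277 and the odds ratio 0.280 (exact adjusted p = 0.0270), and with the Stellate peaks of X also left out it was 0.404 (122 of 131 on X, exact adjusted p = 0.226). A start of more than 1 gene lay inside 28 of the 135 X peaks (20.7%) and 77 of the 305 peaks of the other arms (25.2%), an odds ratio of 0.775 (0.456 to 1.29, exact adjusted p = 0.667).

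**Figure D2:**
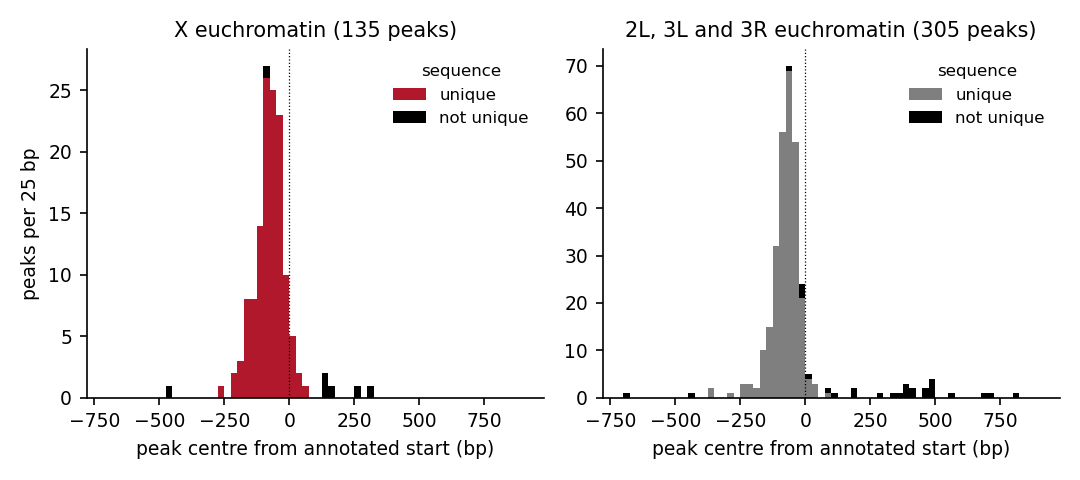
Distance in bp of the peak centre from the nearest annotated start inside the peak, negative upstream, in bins of 25 bp, for X (135 peaks, left) and for 2L, 3L and 3R (305 peaks, right), with peaks in repeated sequence in black. The unique peaks form 1 narrow group upstream of the start, with medians of -73.2 bp on X and -69.8 bp on the other arms. The peaks centred over 100 bp downstream are all in repeated sequence.

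Of the 2664 annotated genes that lie in X euchromatin, 165 (6.19%, 5.34 to 7.17%) had a start inside a peak, beside 4.94% of the 18358 annotated genes of the genome. They were 161 protein-coding genes (7.65% of 2105, beside 5.68% over the genome) and 4 genes of non-coding RNA. In 2L, 3L and 3R euchromatin 456 of 11316 genes (4.03%) had one. With unique peaks alone the shares were 159 genes (5.97%) on X and 329 genes (2.91%) on the other arms. The other arms differed: with all peaks the shares were 6.06% on 2L, near that of X, 2.57% on 3L and 3.53% on 3R. With unique peaks they were 2.51%, 2.57% and 3.51%. Such shares depend on how many peaks an arm holds and how many of them lie at starts, and were not tested.

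Genes of the ribosome made up the best covered of the lists examined. Of 15 cytoplasmic ribosomal protein genes in X euchromatin, 10 had a start inside a peak (66.7%), beside 22 of 52 on 2L, 3L and 3R (42.3%) and 5.68% of all protein-coding genes. They were RpL22, sta, RpL7A, RpL17, RpS14a, RpS28b, RpS15Aa, RpL37-1, RpS19a and RpS5a. The peaks of RpL37-1 (chrX:15139241-15139884, 644 bp) and RpS14a (chrX:7933233-7933815, 583 bp) were among the wider ones, with centres at -195.5 and -218 bp. The peak of RpS15Aa was centred at -18.5 bp, that of RpS28b at -66 bp and that of RpL22 at -85 bp. The peak of sta was centred at 25 bp, downstream of the nearest start. The 5 genes without a start in a peak were RpL36, RpL35, RpS6, RpS14b and RpS10b. RpS14a and RpS14b are tandem duplicates that encode the same ribosomal protein. The start of RpS14b was 1083 bp from the peak on RpS14a, and those of the other 4 genes were 26437 to 54965 bp from the nearest peak.

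Some ribosomal peaks were shared with a neighbour. The peak chrX:6533224-6534017 (794 bp) held starts of both RpL7A and dx, which are divergent and of which dx encodes the Notch pathway regulator Deltex. Its centre lay at -272.5 bp from RpL7A and -378.5 bp from dx. The peak chrX:16637256-16638009 (754 bp) held starts of RpS19a and of a neighbouring gene. These were the 2 widest unique X peaks with a start. The peaks of RpL22, sta and RpS14a also held a start of another gene, lncRNA:CR44966, inc and Dhdds respectively. Within such a peak the file does not separate the genes.

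The other lists are short, and their counts stand beside the 7.65% of X protein-coding genes with a start in a peak, so that 0 or 1 member of 7 is near that share. Of 7 translation factor genes on X, 1 had one, eIF4H1 (chrX:16448354-16448727, centre at -124.5 bp), beside 4 of 32 on 2L, 3L and 3R (12.5%). The start of eIF3g1 was 48 bp from a peak that lay in an HMS-Beagle insertion, with 7.92% unique words. Of 10 chromatin regulator genes, 3 had one. They were fs(1)h, which encodes a BET protein (chrX:8061332-8061767), Set2, the histone H3 lysine 36 methyltransferase (chrX:13412973-13413262), and e(y)3, a subunit of a Brahma remodelling complex (chrX:19638290-19638581). The peaks of fs(1)h and Set2 also held a start of another gene, mys and CG1998 respectively. Their centres lay nearer to those starts, at -95.5 bp from mys and -43.5 bp from CG1998. The distances were -113.5 bp from fs(1)h and -124.5 bp from Set2. The Polycomb genes ph-p and ph-d, the trithorax-related gene trr, mof, Hira, HDAC4 and HDAC6 had no start in a peak. The starts of these genes lay 2185 to 66236 bp from the nearest peak.

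Of 12 wing patterning genes, 3 had a start in a peak. The peak of N, the Notch receptor (chrX:3134537-3134901), was centred at -151 bp from its only annotated start. The peak of sgg, the kinase of the Wingless pathway (chrX:2633809-2634068), held 1 of its 11 starts. The third was dx, with the peak shared with RpL7A. The genes arm, bi, ct, dsh, hop, sd, upd1, Bx and fu had none. Of 7 cell cycle genes 0 had a start in a peak, a count near the 7.65% of all X protein-coding genes. Those of mei-41, Cdk7 and Klp10A were 30, 69 and 581 bp from a unique peak, which for Cdk7 and Klp10A held the start of a neighbouring gene (snf and CDK2AP1), and those of Myc, CycD, Rbf and Klp3A were 6332 to 42007 bp away. Of 7 strongly transcribed housekeeping genes, sesB and Ant2, which encode adenine nucleotide translocases and share a peak (chrX:10786888-10787153), had one. The start of Act5C was 5950 bp from the nearest peak, and Hsc70-3, Gapdh2, Zw and Pgd had none either. The lists were chosen with earlier results of these data known, so their counts are descriptions.

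Outside the lists, and picked after their values were seen, starts in unique peaks included Sxl, the master switch of female sex determination (chrX:7098003-7098352, centre at -124.5 bp), CkIIbeta, the regulatory subunit of casein kinase 2 (chrX:11792342-11792737, 6.5 bp), and Top1, topoisomerase 1 (chrX:15319232-15319529, -98.5 bp). The chaperonin gene Hsp60A, the ubiquitin ligase subunit gene SkpA and dome, the receptor of the JAK/STAT pathway, also had one. The peak of SkpA also held a start of Hmt4-20.

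Motifs at the starts inside peaks were counted beside those at all starts. Within 100 bp on either side of the start, the DRE (TATCGATA, on both strands) was found at 30 of 128 starts in unique X peaks (23.4%, 16.9 to 31.5%), beside 11.0% of the 2105 protein-coding genes of X euchromatin. The core of Motif 1 (GGTCACAC) was also found at 30 of the 128 (23.4%), beside 7.65%. In the unique peaks of 2L, 3L and 3R the shares were 18.5% for the DRE and 20.7% for Motif 1, and their intervals overlapped those of X. The TATA box (TATAAA) was found at 12.5% of the X starts in peaks, beside 24.2% of X protein-coding genes. The GAGA element (GAGAG) was found at 18.8%, beside 21.3%, the longer GA repeat (GAGAGAGA), which contains it, at 0.781%, beside 1.52%, and the E-box (CACGTG), which Myc family proteins bind, at 3.13%, beside 4.89%. Over the whole width of the peaks the DRE lay in 27.3% of the unique X peaks with a start and in 1.12% of windows of 350 bp, the median peak width, tiled along X. For Motif 1 the shares were 30.5% and 0.896%. The windows were not placed at starts, so this contrast includes the difference between starts and other sequence. All these motif counts are matches of letters and were not tested.

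**Figure D3:**
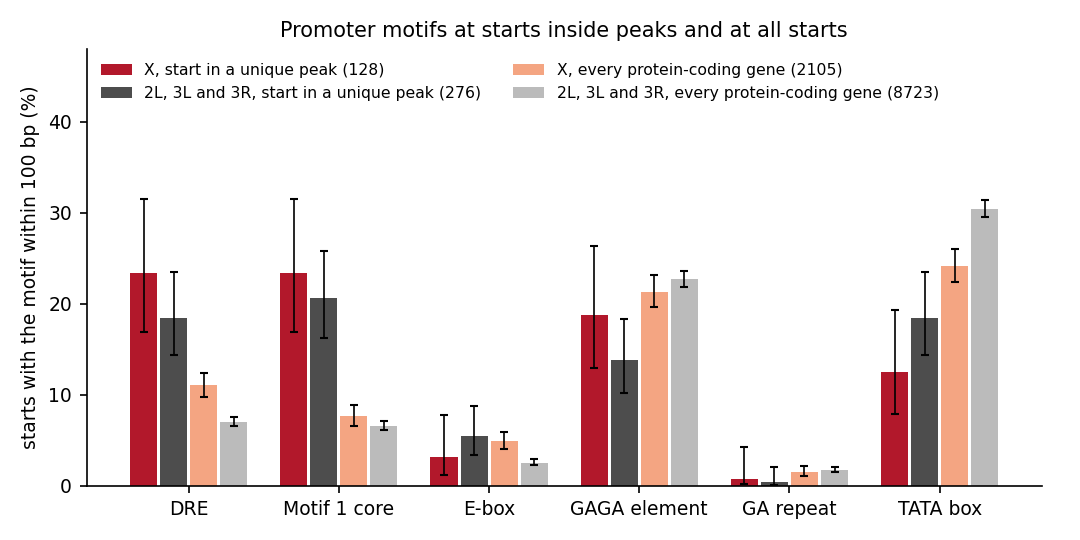
Percent of starts with a motif within 100 bp on either side, for starts in unique X peaks (red, 128), starts in unique peaks of 2L, 3L and 3R (dark grey, 276), and all protein-coding genes of X (orange, 2105) and of the other arms (light grey, 8723). Lines give 95% Wilson intervals. The DRE and Motif 1 each reached 23.4% in X peaks, and the TATA box 12.5%.

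Unique peaks without a start were few. On X 9 were intergenic and 3 lay inside genes, in CG34435 and at 2 places in raskol, which encodes a Ras GTPase activating protein. Of the 9 intergenic peaks, 4 were centred 300 bp or less upstream of a start that they did not reach, namely those of CG32590 (-119.5 bp), TH1 (-125 bp), CG17841 (-167 bp) and ec (-281 bp). The peak at TH1, a subunit of the NELF complex, was the one near mei-41 (chrX:16391458-16391668). The other 5 were centred 1217.5 to 6779 bp from the nearest start, up- or downstream. The DRE lay in 1 of these 12 peaks.

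Mobile elements were the second kind of place. On X 76 peaks overlapped an annotated insertion, and 72 of them were covered by it over 90% or more of their width. Of these peaks 58 lay in genes, 57 of which touched no exon, 15 were intergenic and 3 held a start. The share of peaks in insertions was 32.9% on X (27.2 to 39.2%) and 40.3% on 2L, 3L and 3R (36.5 to 44.2%). Counted by insertion, 52 of 548 X insertions (9.49%) overlapped a peak, beside 8.19% of the 5896 insertions of the genome and 10.7% of those in 2L, 3L and 3R euchromatin. Long insertions held nearly all of them: 49 of 108 X insertions of 3 kb or longer (45.4%, 36.3 to 54.8%) and 3 of 440 shorter ones (0.682%) overlapped a peak. On the other arms the shares were 42.2% and 3.12%. Any overlap counted, so a longer insertion was a larger target, and the shares were not corrected for length.

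The insertions with peaks belonged to 22 families, mostly retrotransposons. The LTR retrotransposon roo had the most, with 12 peaks in 11 of its 27 insertions, followed by 412 with 11 peaks in 6 of 8 and 297 with 4 peaks in 4 of 15. HMS-Beagle had 6 peaks in 3 of 4 insertions, flea 5 peaks in 3 of 6 and 3S18 6 peaks in 2 of 5. Of the non-LTR elements, I had peaks in 3 of 9 insertions, Doc in 2 of 5 and jockey in 2 of 22. The short element INE-1 overlapped a peak at 1 of 237 insertions, and that peak was a unique one at the start of rtv. The families 1360, Rt1c, FB and HeT-A, with 10 to 18 X insertions each, overlapped none. Their median lengths were 267.5, 1175, 1062 and 993.5 bp, and that of jockey was 440.5 bp. Of all X insertions under 3 kb 0.682% overlapped a peak, so a count of 0 in these 4 families is near that share. Of 78 pairs of a peak and an insertion, 31 had the peak centre in the first 20% of the element's length or before its 5' end, and 17 in the last 20%. The centres before the 5' end were those of the INE-1 pair (-71 bp) and of an Rt1b pair (-44.5 bp). In 412 the peak centre was in the first 20% in 7 of 11 pairs.

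**Figure D4:**
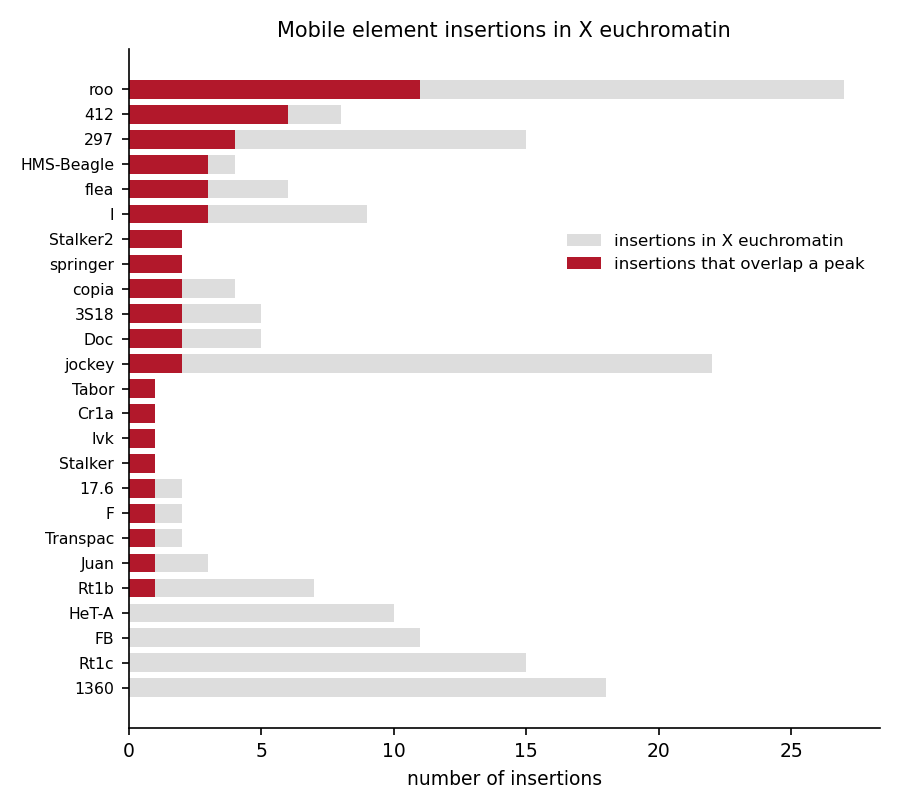
Number of annotated mobile element insertions in X euchromatin by family (grey) and how many of them overlap a peak (red), for families with a peak or with 10 or more insertions. INE-1 is left out, with 1 of 237. The family roo had 11 of 27 and 412 had 6 of 8.

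The widest X peaks were all of this kind. The widest covered most of an HMS-Beagle insertion between genes (chrX:2611586-2617719, 6134 bp). The next were a 3S18 insertion in CG12535 and lncRNA:CR44999 (chrX:3415166-3420228, 5063 bp), an Rt1b insertion in CG42340 (chrX:6430107-6434974, 4868 bp), a 3S18 insertion in CG32816 (chrX:428933-431690, 2758 bp) and an HMS-Beagle insertion in fne (chrX:12931715-12934286, 2572 bp). The widest peaks with a start also lay in HMS-Beagle, at both ends of an insertion in CG42249 (1069 and 985 bp). The widest peak on a Stellate gene, Ste:CG33237, was 799 bp.

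The median width was 350 bp on X, with quartiles of 285 and 471.5 bp and extremes of 129 and 6134 bp, and 338 bp on 2L, 3L and 3R, with quartiles of 268 and 612 bp and extremes of 97 and 10784 bp. A width of 500 bp or more was less frequent on X, with 50 of 231 peaks (21.6%) against 192 of 613 (31.3%), an odds ratio of 0.606 (0.415 to 0.875, exact adjusted p = 0.0310). The call was lost in 9 of 11 alternatives, for example without the histone cluster peaks of 2L (odds ratio 0.720, exact adjusted p = 0.191). Among unique peaks the direction turned, with 7 of 140 on X against 10 of 329 (odds ratio 1.68, exact adjusted p = 0.585). Unique X peaks had a median width of 319 bp and the others 490 bp.

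The tests of repeat content did not pass the threshold. The share of peaks in unique sequence was 60.6% on X and 53.7% on the other arms (odds ratio 1.33, 0.965 to 1.83, exact adjusted p = 0.186). Peaks with at least 50% of their bases soft-masked made up 20.3% on X and 22.8% on the other arms (odds ratio 0.863, 0.581 to 1.27, exact adjusted p = 0.764).

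No X peak overlapped the 359 bp satellite family. A monomer of a euchromatic X array, identical to the next copy, matched X euchromatin at 675 places, which covered 188923 bp (0.887%) in 218 arrays, the longest of 42163 bp. Of the 75-base words in these matches 60.6% occurred once in the genome. With 0 of 231 peaks on a match, a share of up to 1.30% remains possible (3 counts). That limit is above the 0.887% of X euchromatin that the matches cover, and a lack of peaks there was not tested. On 2L, 3L and 3R 0 of 613 peaks overlapped one of their 102 matches. Peaks did come near the arrays. The nearest was the peak of sesB and Ant2, 447 bp from a match, and 3 peaks lay within 1 kb and 34 within 10 kb, with a median distance of 45273 bp. In the whole list 11 peaks overlapped a match, all on 3L beyond its euchromatin. The pericentromeric block of the satellite was not analysed here, since the X sequence beyond 21300000 held no tandem copies of this period.

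The Stellate genes held the largest cluster of X peaks. These tandem genes encode proteins like the regulatory subunit of casein kinase 2 and are kept silent in the male germline by repeats of the Y chromosome related to them. Of 13 genes named Ste in X euchromatin, 8 overlapped a peak: Ste12DOR, Ste:CG33244, Ste:CG33243, Ste:CG33242, Ste:CG33241, Ste:CG33239, Ste:CG33237 and Ste:CG33236. Of the 8 peaks, 7 formed that cluster, in which neighbours were no more than 10 kb apart (chrX:14050929-14061270). Of the 8, 4 held the gene's start, but all 8 were centred downstream of it, at 126 to 648 bp with a median of 231.75 bp, unlike the unique peaks. The share of unique words in these peaks was 0 to 17.7%.

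The narrowest Stellate peak, the 199 bp one printed above, had 116 copies in the genome over at least 80% of its length. Of these, 13 lay in the Ste genes, at 99.0% identity or more, and 82 lay on the Y chromosome, at a median identity of 88.9%. No copy on Y overlapped a peak, nor did any of the 19 copies outside X and Y. Of the 15 copies on X, 10 overlapped a peak. The larvae were labelled female, which carry no Y chromosome, yet 97 peaks of the list lay on Y, of which 1 was in unique sequence.

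**Figure D5:**
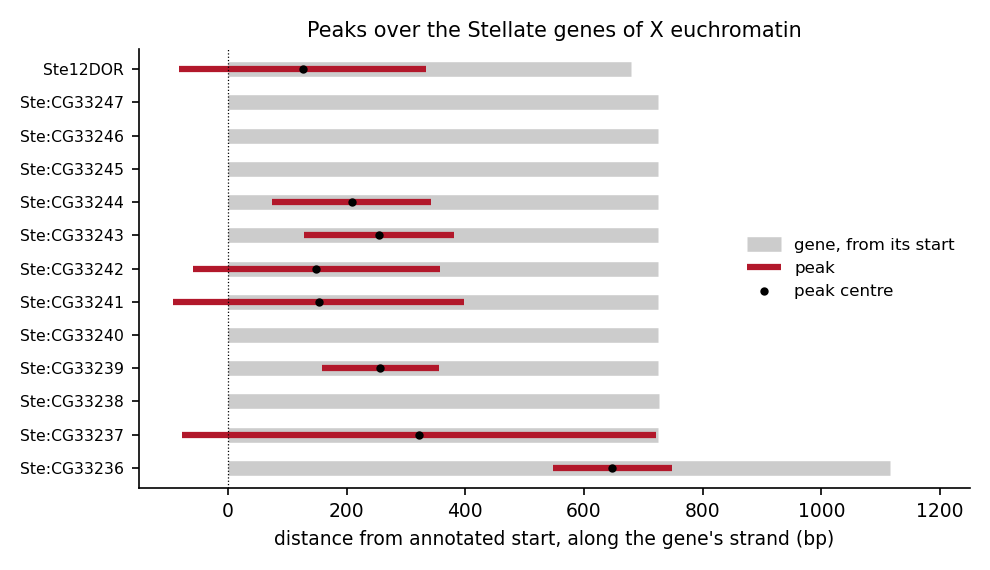
The 13 Stellate genes of X euchromatin drawn from their annotated start (0, dotted line) along their strand, in bp, with the gene in grey, the peak in red and its centre as a point. The 8 peaks are centred 126 to 648 bp downstream of the start, and 5 genes have no peak.

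The most distal X peaks were copies of 1 sequence. They lay at chrX:15526-15679, chrX:26677-26805, chrX:38181-38316 and chrX:49837-49983, 129 to 154 bp wide, with no unique word. The sequence of the narrowest had 10 identical copies in the assembly: 4 on X, each with a peak and 11147, 11506 and 11671 bp apart, 5 on chromosome 4, of which 3 had a peak, and 1 elsewhere, without a peak. All 4 X peaks held the DRE, as in the stretch printed above, and they were the only X peaks in repeated sequence that did. They lay distal to all annotated X genes and insertions, of which the first began at 103614.

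Along X, peaks were present in each of the 21 windows of 1 Mb, with 3 to 19 peaks and a median of 11. Unique peaks numbered 1 to 12 per window, with a median of 7. The most distal window held 19 peaks, of which 15 were in repeated sequence, and the window from 14 Mb, with all 8 Stellate peaks, held 13, of which 1 was unique. The 230 gaps between neighbours had a median of 55526.5 bp, quartiles of 13331 and 126740 bp and extremes of 76 and 553887 bp. In all, the density was 10.8 peaks per Mb on X and 8.42 on 2L, 3L and 3R, and in unique sequence 6.97 and 4.71 unique peaks per Mb. A neighbour within 10 kb was found for 84 of 231 X peaks (36.4%) and 221 of 613 others (36.1%), an odds ratio of 1.01 (0.729 to 1.40, exact adjusted p = 1). On X it was found for 20.7% of the unique peaks and 60.4% of those in repeated sequence.

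At the limit of the region, the last peak inside was one at an annotated start (chrX:20510603-20510900, centre at -57.5 bp), 789100 bp before the limit. The first beyond it was at the start of Septin1 (chrX:21357965-21358315, centre at -146 bp). Both are in unique sequence. Beyond the limit X held 294 further peaks, 106 of them in the first 1 Mb.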

How the data were processed

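ChIP-seq with an anti-Myc antibody was done on wing discs, with reads of 75 bp in the 4 Myc-CycGΔP libraries and of 50 bp in the mock libraries, which are not analysed here. The authors filtered reads by quality, aligned them to dm6 with Bowtie2 2.1.0, called peaks with MACS2 2.1.0 for each replicate against its input, kept reproducible peaks by the irreproducible discovery rate and merged them with bedtools. The deposited list has 3 columns, of which the start and end positions (in bp, no count, score or signal) were used. It gives no depth, so intervals cover the counting of peaks and genes only.

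Genes, biotypes and mobile elements came from the Ensembl release 115 annotation, whose coordinates are those of dm6, and sequence and soft-masking from RefSeq dm6. A peak was assigned to a TSS when an annotated transcript start lay inside it, otherwise to a gene body when it overlapped a gene by 1 bp, otherwise to intergenic space. Each 75-base word of the genome was counted on both strands, and 40 words were checked by direct search with 0 disagreements. Peaks of X and of 2L, 3L and 3R were compared with two-sided Fisher's exact tests and conditional odds ratios, adjusted over 10 properties by the Benjamini-Hochberg method. The test was tried on simulated data. Satellite copies were sought with blastn 2.17.0 (E at most 1e-10). The planned query from beyond the X limit held no tandem copy (41.5% identity to the next), so a euchromatic monomer was used, a choice made after seeing the data. Stretches were printed only where no 20-base word also lay on an arm that is not reported here. Python 3.11.15 with numpy 2.4.6, pandas 2.3.3, scipy 1.17.1, statsmodels 0.14.6, numba 0.67.0 and matplotlib 3.10.9 was used.

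The genes named were those of the widest peaks, of the peaks beside the limit and of 6 gene lists (RpL, RpS and sta; eIF, eEF and eRF; chromatin, wing patterning, cell cycle and housekeeping genes). One listed symbol, e(y)1, matched no gene of X euchromatin. The members and the lists were chosen with earlier results of these data known.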

Additional observations from a re-analysis of the deposited data

How the results depend on the processing

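Odds ratios of X against 2L, 3L and 3R were recomputed under the other settings. Each of the 10 properties except the satellite share changed its call or its direction in at least 1 of them. With unique peaks alone the odds ratios were 0.533 for gene bodies, 0.497 for intergenic peaks and 1.21 for starts of several genes. They were 0.449 for upstream centres, 1.68 for wide peaks and 2.35 for masked peaks (only 1 of 140 on X against 1 of 329). None of these odds ratios passed the threshold (exact adjusted p 0.234 to 0.635). Without the histone cluster peaks they were 1.52 for starts (exact adjusted p = 0.0270), 1.13 for starts of several genes, 0.280 for upstream centres (exact adjusted p = 0.0270) and 0.720 for wide peaks. Among peaks of at least the median width of the list, 365 bp, they were 1.95 for starts (exact adjusted p = 0.0167), 0.377 for starts of several genes (exact adjusted p = 0.0436) and 2.65 for unique sequence (exact adjusted p = 0.000698). With clusters as units, a cluster had a property when any of its peaks had it. The odds ratios were then 0.919 for gene bodies, 0.559 for intergenic peaks, 1.19 for starts of several genes, 0.380 for upstream centres and 0.803 for wide peaks. With every limit 2 Mb further from the centromere they were 1.06 for starts of several genes, 0.211 for upstream centres (exact adjusted p = 0.00868) and 0.756 for wide peaks.

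Against 2L alone the odds ratios were 0.675 for intergenic peaks, 0.482 for starts of several genes (exact adjusted p = 0.0333), 2.92 for upstream centres (exact adjusted p = 0.0141), 1.78 for unique sequence (exact adjusted p = 0.0141), 1.29 for masked peaks and 0.806 for close neighbours. Against 3L alone they were 2.01 for starts (exact adjusted p = 0.00648), 0.784 for gene bodies, 0.269 for upstream centres and 0.654 for wide peaks. Against 3R alone they were 1.19 for starts of several genes, 0.304 for upstream centres and 0.740 for wide peaks. At 1000 bp or wider the odds ratio was 0.548 (exact adjusted p = 0.103), and for neighbours within 2 kb 0.703. The remaining settings for peaks were chosen after seeing the data. Without the Stellate peaks it was 0.936 for close neighbours. Without the Stellate and the histone cluster peaks it was 1.54 for starts (exact adjusted p = 0.0365), 1.18 for starts of several genes, 0.404 for upstream centres and 0.734 for wide peaks. Without peaks in mobile elements it was 0.879 for gene bodies, 0.746 for intergenic peaks, 0.489 for wide peaks and 6.56 for masked peaks, with 8 of 155 on X against 3 of 366 (exact adjusted p = 0.0369). Counted over protein-coding genes alone, 7.65% of X genes had a start in a peak. The causes of these changes were not tested.

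The lower intergenic share kept its direction in all 13 alternatives and the threshold in 9, and the higher TSS share kept its direction in all 13. The satellite share was 0 on X and on the other arms and gave no odds ratio under any setting, and the share that defines a setting (unique sequence among unique peaks, wide peaks among wider ones) gave none there. No paired analysis was possible because the 2 ChIP replicates were fused into 1 list, and for the same reason leaving out a replicate gave no value. Peaks within a repeat family or cluster share sequence, so they are not independent units.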
